A study of Mus musculus with 9 samples.

Results

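Matricellular proteins are secreted into the extracellular matrix, where they signal to cells and organise other matrix molecules more than they bear load. Together with a few proteins that hold mineral in check or bind it, they formed the group of 10 genes described here, taken by symbol: the thrombospondins Thbs1, Thbs2, Thbs3, Thbs4 and Comp, the tenascin Tnc, the periostin gene Postn, the osteopontin gene Spp1, the matrix Gla protein gene Mgp and Fndc1, which encodes a fibronectin type III domain protein. A probeset, the set of array probes that reads 1 transcript region, was found for 9 of the 10, out of 19938 genes in all, and each of the 9 had a single named probeset. Spp1 had none in the platform annotation and was not analysed here.

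The cells were first-passage primary cultures of urogenital sinus mesenchyme, the connective tissue that directs budding of the prostate, from male CD-1 mouse fetuses on gestation day 17. All cultures stood for 3 days in charcoal-stripped serum with 690 pM dihydrotestosterone (DHT), and this androgen stayed in every group during 4 days of treatment. The 3 groups received ethanol vehicle (0.05% in the sample source names and the methods, but 0.5% in the deposited treatment protocol), 10 pM 17beta-estradiol (E2) or 100 pM E2, and each was read on 3 Affymetrix Mouse Gene 1.0 ST arrays. The mesenchyme was separated from epithelium by settling, and per the methods the makeup of both fractions was checked by staining for cytokeratins and vimentin, with the images not shown. Nothing in the sources states that the 3 replicates of a group came from separate animals. The p-values rest on how far the arrays within a group differ, a spread pooled over the 3 groups and drawn towards that of all genes. It could therefore be technical only.

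Thrombospondins 1 and 2 assemble as trimers, inhibit angiogenesis and bind the receptors CD47 and CD36, whereas thrombospondins 3, 4 and 5, the last of which is encoded by Comp, assemble as pentamers found in cartilage, tendon and muscle. Tenascin C and periostin are laid down in mesenchyme during morphogenesis and in wounds, and both engage integrins. Matrix Gla protein is carboxylated with the help of vitamin K and keeps soft tissue from calcifying, while osteopontin binds mineral and signals through integrins and CD44.

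Values are log2 signals, so a difference of 1 is a doubling, and differences are taken only within a probeset. Levels of different genes were not compared with each other, except roughly against the array medians or the dimmest 30% of genes. Array medians lay between 6.17 and 6.20. Arrays of a group correlated with r from 0.997 to 0.998 across genes and arrays of different groups with r from 0.996 to 0.998. The progesterone receptor gene Pgr, a known estrogen target, measured 6.57, 6.84 and 6.77 in vehicle, 7.04, 7.27 and 7.26 at 10 pM and 7.55, 7.84 and 7.90 at 100 pM. In the limma test described below, Pgr passed at 100 pM against vehicle (1.04, adjusted p = 0.00359). It did not pass at 10 pM against vehicle (0.46) or between the doses (0.58, adjusted p = 0.0528, limma). Mesenchymal markers, among them Vim, Pdgfra and Col1a1, averaged 10.89 to 11.04 on every array, and all 12 were above the level of the dimmest 30% of genes (5.46), as were 8 of 14 epithelial, 9 of 14 macrophage and 7 of 10 endothelial markers. All but 30% of genes lie above that level by definition, so these counts do not show that other cell types were present. The epithelial, macrophage and endothelial lists averaged at most 5.90, 5.77 and 6.14 on any array, below the lowest array median. Single genes of these lists lay above every array median, among them Krt18 (7.15 to 7.98), Kdr (6.71 to 7.99) and Emcn (6.94 to 8.02). Others, such as Epcam, Adgre1 and Pecam1, lay below every array median. These genes are named after their values were seen.

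Promoter sequence was looked up for the members that passed the test over the 3 groups, since E2 acts through a receptor that binds DNA. RefSeq (build GRCm38.p6) gave promoter windows for 7 of the 10 members, 3 of them among those that passed, Fndc1, Postn and Thbs2. Shown are the 250 bases before each annotated start, read 5′ to 3′, with the capitals marking the estrogen receptor half-site GGTCA or its complement TGACC, or the TATA box TATAAA or its complement TTTATA. Fndc1 lies on the minus strand (chr17:7827303-7827552), Thbs2 on the minus strand (chr17:14694263-14694512), and Postn on the plus strand with an outer start (chr3:54359017-54359266) and an inner start (chr3:54360857-54361106).
Fndc1: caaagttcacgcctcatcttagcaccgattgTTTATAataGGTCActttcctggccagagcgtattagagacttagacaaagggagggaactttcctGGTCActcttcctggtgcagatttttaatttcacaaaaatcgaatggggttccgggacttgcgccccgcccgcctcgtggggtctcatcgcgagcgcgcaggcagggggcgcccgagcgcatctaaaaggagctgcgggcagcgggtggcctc
Thbs2: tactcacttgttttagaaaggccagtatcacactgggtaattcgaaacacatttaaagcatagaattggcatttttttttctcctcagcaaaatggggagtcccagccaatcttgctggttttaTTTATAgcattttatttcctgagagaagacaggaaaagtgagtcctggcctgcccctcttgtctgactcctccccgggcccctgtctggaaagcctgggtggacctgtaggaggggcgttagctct
Postn, outer start: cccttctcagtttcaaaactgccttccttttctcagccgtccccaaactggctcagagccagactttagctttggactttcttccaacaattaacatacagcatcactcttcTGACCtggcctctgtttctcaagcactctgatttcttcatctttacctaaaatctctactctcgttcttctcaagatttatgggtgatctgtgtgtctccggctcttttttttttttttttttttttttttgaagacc
Postn, inner start: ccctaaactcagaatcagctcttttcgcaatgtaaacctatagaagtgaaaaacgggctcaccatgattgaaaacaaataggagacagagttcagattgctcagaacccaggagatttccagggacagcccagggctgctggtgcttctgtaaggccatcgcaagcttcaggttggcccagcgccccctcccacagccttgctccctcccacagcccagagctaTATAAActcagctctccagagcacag

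The full palindrome GGTCANNNTGACC, searched on both strands, had 0 matches in the promoter windows of the 7 members and was present in 0.0639% of all 32851 promoter windows of the same length. Fndc1 held 2 copies of the half-site, which begin 210 and 153 bases before the start, and the outer start of Postn held 1, on the other strand, 138 bases before. Thbs2 and the inner start of Postn held none. The half-site is common, being present in 35.2% of all windows, and it is part of the palindrome. A TATA box, found in 12.4% of all windows, began 26 bases before the inner start of Postn, and matches on the other strand lay 126 bases before Thbs2 and 219 bases before Fndc1. These are matches of letters and not binding sites.

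Across the 3 groups, 4 of the 9 measured members differed in the limma F test (p adjusted by Benjamini-Hochberg, threshold 0.05), while 0.843% of all genes did so. Fndc1 (adjusted p = 0.00615), Mgp (adjusted p = 0.0212) and Postn (adjusted p = 0.0395) had group means that fell with dose, and the mean of Thbs2 (adjusted p = 0.0423) rose with dose. In the other 5 members the adjusted p lay between 0.461 and 0.87. By the order of the means alone, 4 members fell with dose, 3 rose, 2 were lowest at 10 pM and 0 were highest at 10 pM, while over all genes these orders made up 17.4%, 21.3%, 29.1% and 32.1%. The F test count was 1 of 9, Fndc1, without the first vehicle array, without the first or the third 10 pM array, or without the second or the third 100 pM array. It was 2, Mgp and Fndc1, without the third vehicle, the second 10 pM or the first 100 pM array, and plain analysis of variance, without limma's shared spread, left 0 members after adjustment.

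**Figure D1:**
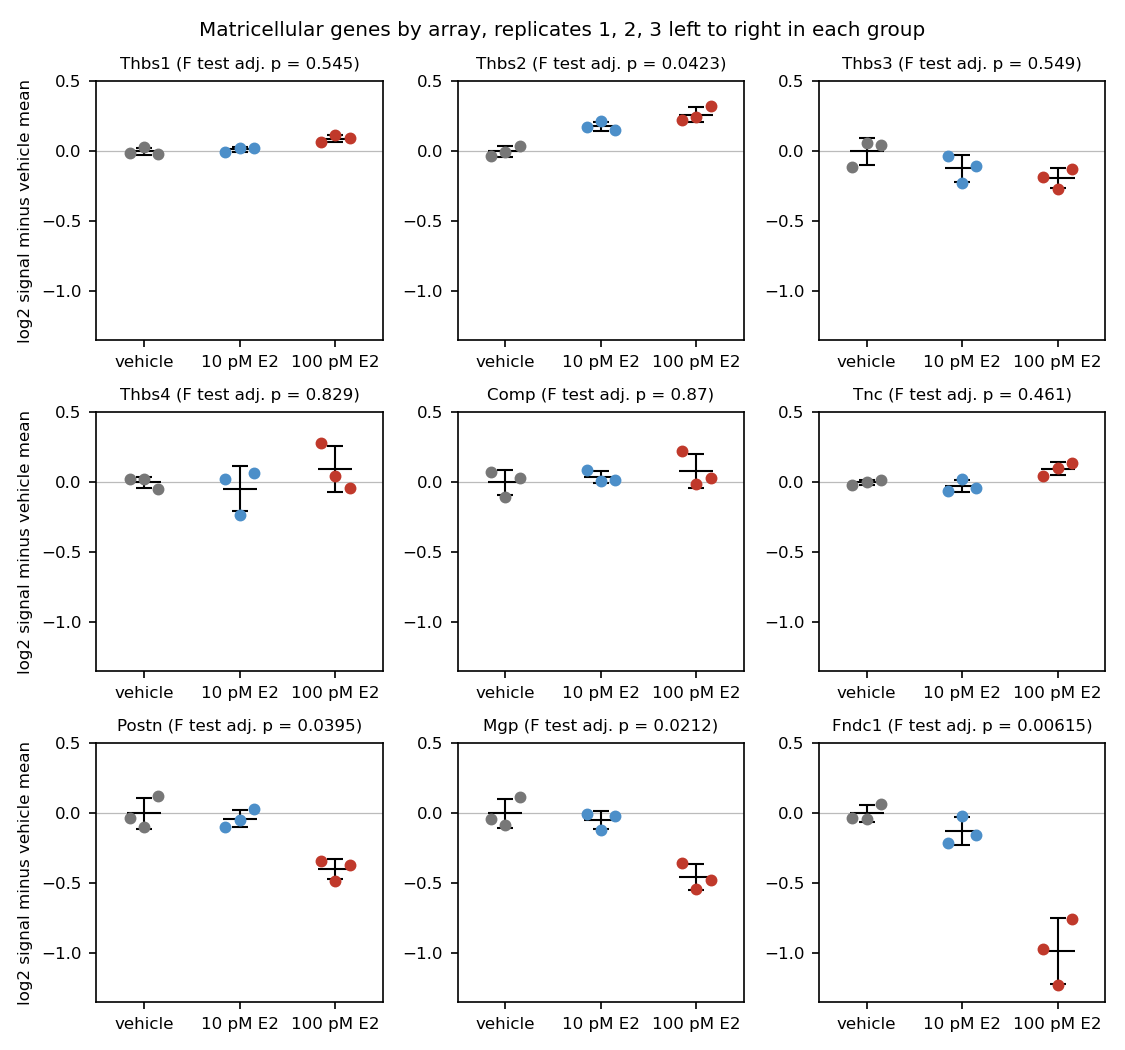
Log2 signal minus the vehicle mean for the 9 measured members, with 1 point per array (replicates 1, 2 and 3 from left to right) and bars for the mean and SD of 3 arrays in vehicle, 10 pM E2 and 100 pM E2. The 100 pM arrays of Fndc1, Mgp and Postn lie below all other arrays, those of Thbs2 lie above all others, and Thbs4 and Comp overlap between groups.

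Fndc1, whose product is known from work on the rat heart as an activator of G protein signaling, had the largest difference among the members. It measured 8.00, 7.99 and 8.10 in vehicle, 7.82, 8.01 and 7.88 at 10 pM and 7.06, 6.80 and 7.28 at 100 pM. The 100 pM arrays were all below the others, and the vehicle and 10 pM arrays overlapped. Its mean was 7.05 ± 0.24 at 100 pM and 8.03 ± 0.06 in vehicle (SD, n = 3 each), and it fell by 0.98 ± 0.11 on the log2 scale (SE, limma adjusted p = 0.00387), to 50.6% of vehicle. The spread among the 100 pM arrays was the widest of any member and group.

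Mgp measured 10.75, 10.71 and 10.91 in vehicle, 10.79, 10.67 and 10.77 at 10 pM and 10.44, 10.26 and 10.32 at 100 pM. Again the 100 pM arrays were all the lowest and the vehicle and 10 pM arrays overlapped. Mgp fell to 10.34 ± 0.09 at 100 pM, against 10.79 ± 0.10 in vehicle (SD, n = 3 each), a difference of -0.46 ± 0.07 (SE, limma adjusted p = 0.0138), or 72.9% of vehicle.

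Postn measured 11.19, 11.13 and 11.34 in vehicle, 11.13, 11.17 and 11.25 at 10 pM and 10.88, 10.74 and 10.85 at 100 pM. Its groups were arranged like those of Mgp, with 100 pM apart and the other groups overlapping. The mean was 10.82 ± 0.07 at 100 pM and 11.22 ± 0.11 in vehicle (SD, n = 3 each), a difference of -0.40 ± 0.06 (SE, limma adjusted p = 0.0242), or 75.9% of vehicle. In all of Fndc1, Mgp and Postn, the third vehicle array was the highest of the 9 and the second 100 pM array the lowest.

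Thbs2 was the only member that passed the test in the upward direction. It measured 10.98, 11.01 and 11.06 in vehicle, 11.20, 11.23 and 11.17 at 10 pM and 11.24, 11.26 and 11.34 at 100 pM. No array of one group overlapped those of another, so the order of the groups followed the dose on every array. The 2 doses nearly met, though, with 11.234 as the highest value at 10 pM and 11.240 as the lowest at 100 pM. The mean was 11.28 ± 0.05 at 100 pM and 11.02 ± 0.04 in vehicle (SD, n = 3 each), and it rose by 0.26 ± 0.04 (SE, limma adjusted p = 0.0182), to 120% of vehicle.

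The other trimeric thrombospondin, Thbs1, measured 13.32, 13.36 and 13.31 in vehicle, 13.33, 13.36 and 13.36 at 10 pM and 13.40, 13.45 and 13.43 at 100 pM. Its 100 pM arrays lay above all others, but the difference from vehicle was 0.09 ± 0.03 and did not pass (adjusted p = 0.345, limma). Tnc measured 11.79, 11.82 and 11.84 in vehicle, 11.76, 11.84 and 11.78 at 10 pM and 11.86, 11.92 and 11.96 at 100 pM. As in Thbs1, the 100 pM arrays of Tnc were the highest, by 0.10 ± 0.04 over vehicle (adjusted p = 0.415, limma), with a 95% interval of 0.01 to 0.19.

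Among the pentameric thrombospondins, Thbs3 measured 7.87, 8.04 and 8.03 in vehicle, 7.95, 7.75 and 7.87 at 10 pM and 7.79, 7.71 and 7.85 at 100 pM. The 100 pM arrays were below the vehicle arrays but not below the 10 pM arrays, with a difference from vehicle of -0.19 ± 0.07 (adjusted p = 0.316, limma). Thbs4 lay between 5.26 and 5.77 and Comp between 5.79 and 6.12 over the 9 arrays, in both cases below the median of every array, and their groups overlapped. Their differences between 100 pM and vehicle were 0.09 ± 0.10 for Thbs4, with a 95% interval of -0.12 to 0.31, and 0.08 ± 0.07 for Comp, with an interval of -0.07 to 0.24. Changes inside these intervals could not be told from the spread.

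In the comparison of 100 pM E2 with vehicle as a whole, 3 of 9 members fell, against 0.687% of all genes, and 1 rose, against 0.446%. For 7 of 9 members no 100 pM array fell within the range of vehicle or the reverse, against 12.5% of all genes. The median size of the difference, whatever its sign, was 0.19 among the members and 0.05 over all genes, and the median signed difference was 0.08, against 0.00 over all genes. The members had been chosen with such results known, so these shares describe the group. The count of 4 was 1, Fndc1, without the first vehicle array or without the second 100 pM array, and 2, Thbs2 and Fndc1, without the third 100 pM array. It was 3 without the second vehicle array, where Thbs2 was lost (adjusted p = 0.068), and 3 without the third vehicle or the second 10 pM array, where Postn was lost (adjusted p = 0.0692 and 0.059).

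At 10 pM E2 against vehicle, 0 of 9 members passed, as did 0% of all genes (smallest adjusted p = 0.16, limma), and plain contrasts also called 0 genes. At an unadjusted p below 0.05 there was 1 member, Thbs2, and 3.54% of all genes. Thbs2 was 0.18 ± 0.04 higher (unadjusted p = 0.00153, limma, adjusted p = 1), with a 95% interval of 0.09 to 0.27, and it was also the only member whose arrays did not overlap, against 5.93% of all genes. For the genes that fell at 100 pM, the differences at 10 pM were -0.13 for Fndc1 (95% interval -0.37 to 0.11), -0.05 for Mgp (-0.20 to 0.10) and -0.04 for Postn (-0.18 to 0.11). The remaining 5 members differed from vehicle by -0.12 to 0.04. Both doses were set against the same 3 vehicle arrays, so their differences from vehicle are not independent of each other.

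Between the doses, the same 3 genes were lower at 100 pM than at 10 pM, where 0.607% of all genes were lower, and 0 members were higher, against 0.226%. Fndc1 differed by -0.86 ± 0.11 (adjusted p = 0.0101), Mgp by -0.41 ± 0.07 (adjusted p = 0.0283) and Postn by -0.36 ± 0.06 (adjusted p = 0.0434, all limma, n = 3 arrays per group). Thbs2 differed by 0.08 ± 0.04, with a 95% interval of -0.01 to 0.17 (adjusted p = 0.553), so a further rise between the doses was not shown. Arrays of the doses did not overlap for 6 of 9 members, the 4 named and Thbs1 and Tnc, against 12.3% of all genes. The count of 3 was 0 whichever 10 pM array was left out, and it was 1, Fndc1, without the first vehicle, the second 100 pM or the third 100 pM array. In these fits without 10 pM replicate 1, 2 or 3 the adjusted p of Fndc1 was 0.0528, 0.0558 and 0.057, and its difference was -0.90, -0.80 and -0.87. Without the second vehicle or the first 100 pM array Postn alone was lost (adjusted p = 0.053 and 0.0662).

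**Figure D2:**
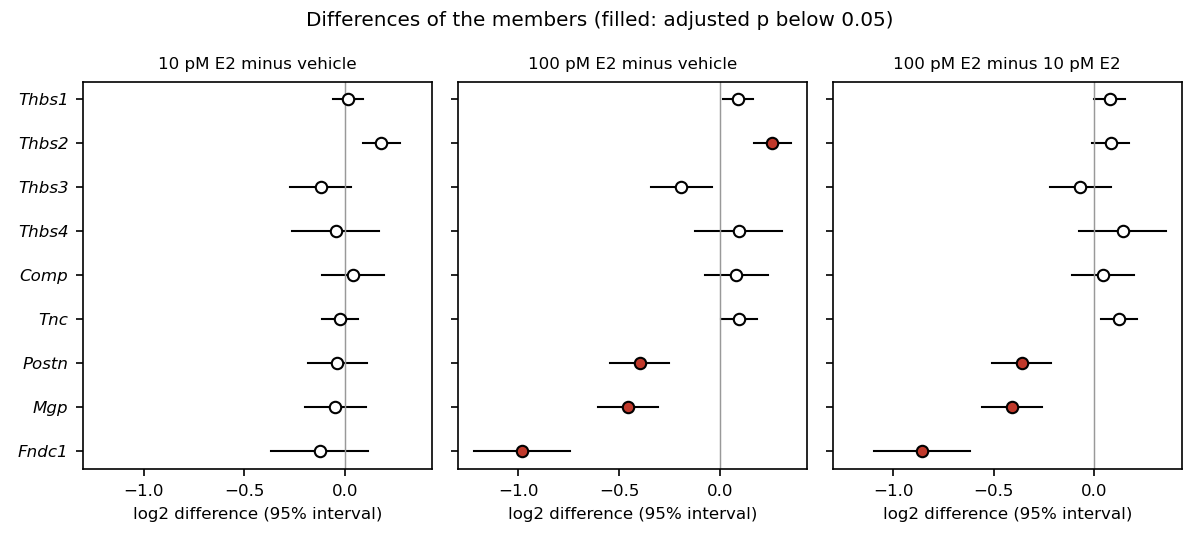
Log2 differences of the 9 measured members in the 3 comparisons, with horizontal 95% intervals from the limma fit, and filled circles for an adjusted p below 0.05. Fndc1, Mgp and Postn lie left of 0 wherever 100 pM E2 is compared, and Thbs2 lies right of 0 against vehicle at both doses, past the threshold at 100 pM.

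The patterns over the 9 arrays were also compared between members, as a description in which group differences and single arrays both take part. Mgp and Postn had the highest correlation of any pair (r = 0.971), followed by Fndc1 with Postn (r = 0.949) and with Mgp (r = 0.925). After the group means were taken out, r was 0.767 for Mgp and Postn, 0.541 for Fndc1 and Postn and 0.201 for Fndc1 and Mgp. Thbs1 ran opposite to Mgp (r = -0.969, and -0.843 after the group means were taken out), though its whole range was narrow. Values of larger size after that step were found in other pairs. They were -0.949 for Thbs4 and Tnc and -0.926 for Thbs1 and Comp, pairs without a called member. For Tnc and Thbs2, which was called, r was 0.851. Such values were thus not limited to pairs with a called member.

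Over all genes, the closest pattern to Fndc1 was that of Prss35, a secreted protease homolog (r = 0.995 over 9 arrays), then Sulf1, which removes sulfate from heparan sulfate (r = 0.990), and Sema3d, a secreted guidance protein (r = 0.990). Their differences between 100 pM and vehicle were -0.66, -0.72 and -0.66. Postn was closest to Pdgfrl (r = 0.988), a protein like the PDGF receptor, Rbm46 (r = 0.987) and the chromatin remodeler gene Smarca1 (r = 0.983). Mgp was closest to Tro (r = 0.979), the estrogen sulfotransferase gene Sult1e1 (r = 0.974) and Igfbp3 (r = 0.973), which encodes a binding protein of insulin-like growth factors. Thbs2 was closest to Spock3, a testican of the Sparc family (r = 0.956), the cation channel gene Trpc6 (r = 0.954) and Clca3a2 (r = 0.946), which were higher at 100 pM than in vehicle by 0.84, 0.70 and 0.53. All these r values are the highest among 19938 genes over only 9 arrays. How high such maxima would be among unrelated genes was not tested.

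Among 23 other matricellular and related matrix genes, 4 fell and 1 rose at 100 pM against vehicle, while 0.687% and 0.446% of all genes did so. The median difference of the 23 was -0.01. Spon2, which encodes the secreted protein mindin, measured 9.39, 9.13 and 9.43 at 100 pM and 9.81, 9.90 and 9.86 in vehicle, and fell by 0.54 ± 0.08 (adjusted p = 0.0159, limma). The 100 pM and vehicle arrays did not overlap in Spon2, nor in any of the other 4 that passed. Over the list this held for 8 of the 23 genes, against 12.5% of all genes. Matn2, a matrilin that links matrix fibrils, differed by -0.45 ± 0.07 (adjusted p = 0.0242), and Sparcl1, a relative of Sparc that binds collagen, by -0.37 ± 0.06 (adjusted p = 0.0306). Ccn3, a matricellular protein of the CCN family, differed by -0.82 ± 0.14 (adjusted p = 0.0351) and is named here after its value was seen. Fbln5, which helps assemble elastic fibres, rose by 0.22 ± 0.04 (adjusted p = 0.0343). Other well-known members of the class, Sparc (-0.01), Ccn1 (0.06) and Ccn2 (0.17), did not pass, and they too are named after their values were seen. Between the doses Spon2 (-0.60) and Sparcl1 (-0.36) were lower and Fbln5 (0.29) higher at 100 pM, and at 10 pM against vehicle 0 of the 23 passed.

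Of 18 genes for receptors of these proteins, 2 rose and 0 fell at 100 pM against vehicle, while 0.446% and 0.687% of all genes did so. The median of the 18 was 0.04. In that comparison the arrays did not overlap for 9 of the 18, against 12.5% of all genes. Itga4, the integrin alpha 4 chain, whose integrins bind fibronectin and osteopontin, measured 8.89, 8.96 and 8.82 at 100 pM and 8.34, 8.51 and 8.31 in vehicle. Cd44, a receptor for hyaluronan and osteopontin, measured 8.10, 8.34 and 8.30 at 100 pM and 7.64, 7.93 and 7.82 in vehicle. In both genes the 100 pM arrays lay above all others, while the vehicle and 10 pM arrays overlapped. The rises over vehicle were 0.50 ± 0.07 for Itga4 (adjusted p = 0.00875) and 0.45 ± 0.09 for Cd44 (adjusted p = 0.0485, both limma). Itga4 was also higher than at 10 pM (0.48, adjusted p = 0.0146), while Cd44 did not pass there (0.37, adjusted p = 0.12).

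The genes on 2 lists of mineralization genes, which do not include Mgp, did not pass in any comparison. At 100 pM against vehicle only 0.687% of all genes fell and 0.446% rose, so a count of 0 in lists this short is near that share. Of 13 measured promoters of mineralization 0 passed at 100 pM against vehicle (median 0.06), and those of smallest p were Bmp2, a bone morphogenetic protein, at -0.27 (adjusted p = 0.316), and Anxa6, an annexin of matrix vesicles, at 0.11 (adjusted p = 0.483). Of 13 measured inhibitors and vitamin K cycle genes 0 passed (median 0.02), with 0.22 for Gas6, another vitamin K dependent protein (adjusted p = 0.0999), and 0.22 for Ank, the pyrophosphate transporter that opposes mineral growth (adjusted p = 0.118). The largest difference of this list was -0.37, for Nt5e (adjusted p = 0.183, limma), named after its value was seen. In the same comparison groups did not overlap for 5 of these 13 genes and 2 of the 13 promoters of mineralization, against 12.5% of all genes. Ggcx, the carboxylase that modifies matrix Gla protein, differed by -0.08, and Vkorc1, which recycles vitamin K, by -0.12 (adjusted p = 0.483 and 0.39). Both are named for their link to Mgp, after their values were seen.

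**Figure D3:**
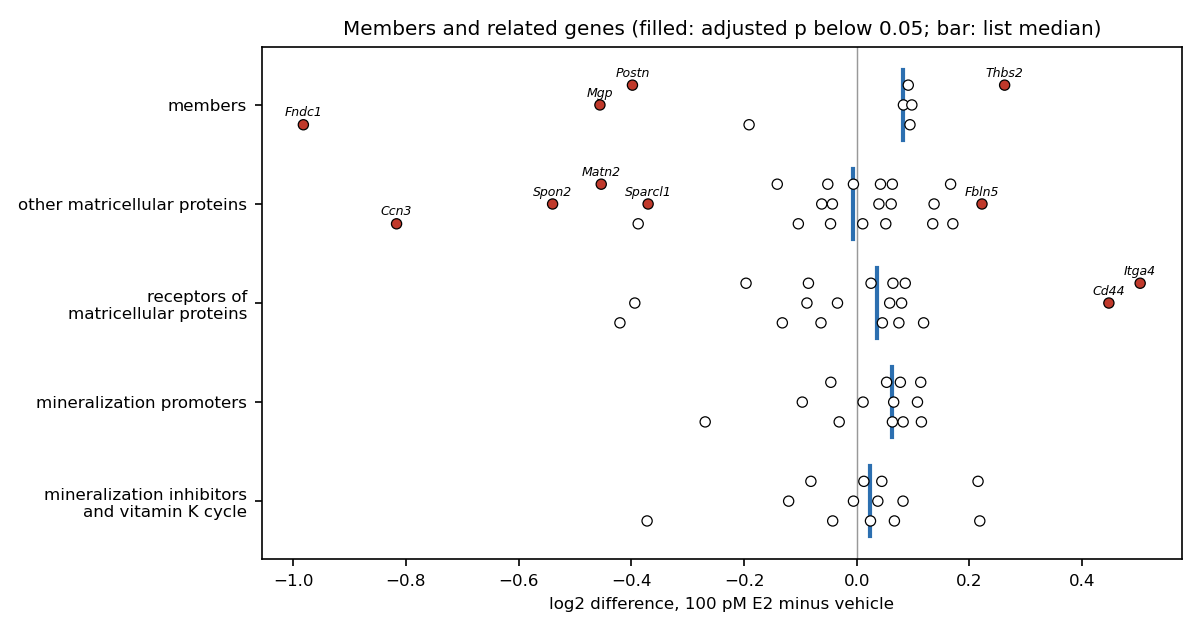
Log2 differences of 100 pM E2 minus vehicle for the 9 measured members and 4 lists of related genes, with 1 circle per gene, filled for an adjusted p below 0.05, and a vertical bar at each list's median. Called genes are named. Both lists of mineralization genes hold none, and Fndc1 (-0.98) and Ccn3 (-0.82) lie farthest to the left.

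Some lists of cell type markers also differed between the groups. At 100 pM against vehicle, 0.687% of all genes passed as lower and 0.446% as higher, and the median difference over all genes was 0.00. The counts below stand beside these values. Macrophage markers averaged 5.47 to 5.50 on the 100 pM arrays and 5.63 to 5.77 on the vehicle arrays, and 13 of 14 were lower at 100 pM, of which 1 passed, the complement gene C1qb (-0.51, adjusted p = 0.0433). The largest difference of this list from vehicle was that of Lyz2, at -0.88. The 100 pM and vehicle arrays of Lyz2 did not overlap, but it did not pass (adjusted p = 0.155, limma). Of the 12 mesenchymal markers 4 fell, Pdgfra (-0.45), Lum (-0.41), Dcn (-0.25) and Col3a1 (-0.18), and 0 rose. Set against its mean over the 9 arrays, the list averaged -0.10 to -0.04 at 100 pM and 0.01 to 0.04 in vehicle. Endothelial markers averaged 6.03 to 6.06 at 100 pM and 6.06 to 6.14 in vehicle, below the lowest array median (6.17). Of these 10 markers 2 passed, in opposite directions, and theirs were the largest marker differences that passed. Kdr, a receptor for vascular endothelial growth factor, fell by 0.98 (adjusted p = 0.00359), and Emcn, the sialomucin endomucin, rose by 0.82 (adjusted p = 0.00399), and both also passed against 10 pM (-0.86 and 0.65). Of the 14 epithelial markers 0 passed at 100 pM against vehicle, where the list averaged 5.76 to 5.90 and 5.76 to 5.83, but the keratin gene Krt18 was higher at 100 pM than at 10 pM (0.57, adjusted p = 0.0428). Of the 9 smooth muscle markers 0 passed in any comparison. The average of the osteoblast and cartilage markers, 5 of 10 of them above the level of the dimmest 30% of genes, was 5.65 to 5.70 at 100 pM and 5.61 to 5.67 in vehicle, and 0 passed. The part of these shifts in the results for Fndc1, Mgp, Postn and Thbs2 was not tested. In such cultures, fewer cells of a type and less RNA per cell cannot be told apart.

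**Figure D4:**
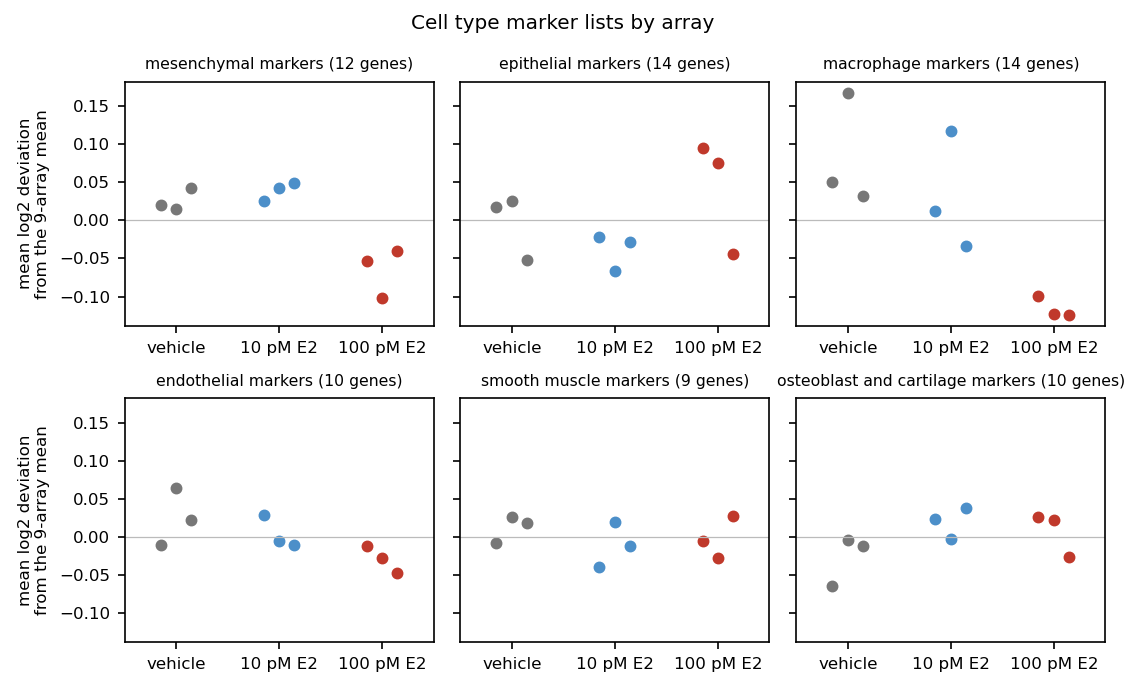
Mean log2 deviation from the mean of all 9 arrays for 6 lists of cell type markers, with 1 point per array in vehicle, 10 pM E2 and 100 pM E2 (replicates 1, 2 and 3 from left to right). Macrophage, mesenchymal and, by a small margin, endothelial markers (-0.012 at the highest, against -0.011 for the lowest other array) were lowest on the 100 pM arrays, and the second vehicle array was the highest for macrophage markers (0.17).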

How the data were processed

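Each of 9 RNA samples was read on 1 Affymetrix Mouse Gene 1.0 ST array. The authors converted the scanned images with GeneChip Operating Software (GCOS) and the Gene Expression Console (versions and summary method not given in the sources used here) and deposited 1 log2 value per probeset and array. That the scale is log2 was read from the values. Of 35556 probesets, 21789 had 1 gene symbol, 1621 several (not named) and 12146 none here, and 21698 matched the current mouse gene table. Per gene the probeset of highest mean was kept (19938 genes). No dim probesets were removed.

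Groups came from the sample titles. The lmFit and eBayes functions of limma (version 3.58.1, R version 4.3.3) fitted one mean per group over all 9 arrays. The F test and 3 pairwise comparisons were two-sided, adjusted by Benjamini-Hochberg over all genes and called below 0.05. On simulated data of 19938 genes for 100 pM E2 minus vehicle, 92 of 100 genes changed by 0.5 and 99 of 100 changed by 1 were recovered, with 8 false calls. The simulated noise was independent and normal, with limma's own estimate of each gene's spread. It thus met limma's assumptions by construction, and recovery in the real data may be lower. Members, gene lists and tests were chosen with earlier results of these data known. Named were all members, up to 4 called genes per related list and comparison (otherwise the 2 of smallest p at 100 pM), the 3 closest patterns per member passing the F test, and Pgr. Figures were drawn with matplotlib 3.10.9.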

Additional observations from a re-analysis of the deposited data

How the results depend on the processing

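The 7 called differences of single members kept their sign under all 20 alternatives run for each, which changed the normalization, filter, probeset summary, variance model, weights, block, samples or test, or left out arrays. Fndc1 at 100 pM against vehicle ranged from -1.10 to -0.86 and passed under 18 of the 20, Mgp from -0.51 to -0.40 (13 of 20), Postn from -0.45 to -0.34 (11 of 20) and Thbs2 from 0.23 to 0.28 (12 of 20). Against 10 pM, Fndc1 passed under 14, Mgp under 10 and Postn under 8.

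Members called in the F test, at 100 pM against vehicle and at 100 pM against 10 pM (4, 4 and 3) numbered 1, 1 and 0 when all probesets were tested and 0, 0 and 0 with plain analysis of variance and contrasts. They numbered 0 and 0 in the pairwise comparisons when only the compared arrays were fitted, and 1, 1 and 1 without the second vehicle and second 100 pM arrays together, a setting added after seeing the data. Leaving out single arrays gave 1 to 3, 1 to 4 and 0 to 3, and 0 for 10 pM against vehicle. With 3 arrays per group, array number limits precision.

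Over all genes, the counts of 168, 226 and 166 in the same order were 65, 119 and 30 with all probesets, 310, 343 and 291 without the dimmest 30%, 308, 349 and 284 with trend and robust, 310, 365 and 302 at an adjusted p below 0.10, and 1, 30 and 1 with plain tests. They were 51, 76 and 64 without both second arrays, 10 and 1 with the compared arrays only, and 85 to 176, 88 to 259 and 30 to 178 without single arrays. At 10 pM against vehicle the count of 0 was 1 with median centring and 1 with the replicate block.

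Same-numbered arrays did not deviate together (r from -0.11 to 0.20 over 9 pairs, against -0.19 to 0.17 over 18 others, and best with the own number in 5 of 18 checks), so the numbers were not taken as pairs. With the replicate block, 3 members passed the F test, 4 at 100 pM against vehicle, 0 at 10 pM and 3 between the doses, and Thbs2 was lost in the F test (adjusted p = 0.104).

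Signs that turned were all of differences that had not passed. Comp at 10 pM against vehicle was -0.012 without the second vehicle array, and also without both second arrays (single arrays out, -0.012 to 0.075). Comp at 100 pM against 10 pM was -0.027 without the first 100 pM array (-0.027 to 0.089). At 10 pM against vehicle and without the third vehicle array, Mgp was 0.012 (-0.087 to 0.012) and Postn 0.026 (-0.084 to 0.026), and Thbs4 was 0.046 without the second 10 pM array (-0.10 to 0.046). The cause was not tested.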
